A study of Mus musculus with 55 samples.

Results

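Gene-rich and gene-poor libraries were compared among 41 single neurons of mice without the knockout, out of 55 samples in the series. A gene-rich cell is one with at least 4000 gene symbols with a read, and 22 cells met this rule; the other 19 cells had fewer and are called gene-poor. The cells were selected on the number of symbols with a read, so the values below describe the sets and carry no test. A patch pipette drew cytosol from a single pyramidal cell of mouse prefrontal cortex, and Nextera XT libraries were made of its total RNA. The labels call each neuron a D1 cell or a D2 cell, after the dopamine receptors D1 and D2, without saying how this was established, and these 41 carry no knockout. The gene-rich set comprised 9 D1 and 13 D2 cells, and the gene-poor set 6 D1 and 13 D2 cells. The wild-type D1 cells came from mice 28 to 34 days old and the wild-type D2 cells from mice 29 to 35 days old. The labels name no strain, no reporter allele, no treatment and no animal, so that cells of 1 age may share an animal, and each set was treated as 1 sample. A further 12 of the 13 knockout cells (Fmr1-/y mice, a fragile X model) that passed quality control would count as gene-rich and 1 as gene-poor; they enter only where named. Cells are named by kind and number within the kind.

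A neuron holds its messenger RNAs in several places. Mitochondria carry their own genome, which encodes subunits of the respiratory chain and a pair of ribosomal RNAs. Cytoplasmic ribosomes hold nuclear-encoded ribosomal RNA, the most abundant RNA of a cell, together with ribosomal proteins. Some long noncoding RNAs, Snhg11 of neurons among them, are found mainly in the nucleus. A pipette passes through tissue in which processes of astrocytes, microglia and oligodendrocytes surround each neuron, so that glial transcripts are a known companion of patch samples.

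The gene-rich cells had between 4266 and 9938 symbols with a read, with a median of 7195, and the gene-poor cells between 1511 and 3770, with a median of 2301. Just inside the rule stood gene-rich D1 cell 10 with 4266 symbols and D1 cell 8 with 6047, and just outside it gene-poor D2 cells 25 and 22 with 3770 and 3724. No wild-type cell lay between 4266 and 6047 symbols, so that D1 cell 10 stood apart from the rest of its set. Its counts held 14.9% mitochondrial transcripts and 5.79% Rn18s-rs5, against 0.201% and 0.638% in D1 cell 8, while gene-poor D2 cells 25 and 22 held 7.72% and 6.87% mitochondrial transcripts and 6.81% and 5.75% Rn18s-rs5. In both classes D1 cell 10 was nearer to the cells just outside the rule than to D1 cell 8.

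Library totals differed between the sets as well. The gene-rich cells had 2002287 to 10673072 counts, with a median of 5023541, and the gene-poor cells 260943 to 5993694, with a median of 1177053. To compare them at 1 depth, each cell was thinned at random to 250000 counts. The gene-rich cells then showed 3071 to 8914 symbols, with a median of 6038, and the gene-poor cells 1054 to 2791, with a median of 1595. The sets still did not overlap. Of the gene-poor cells, 7 had totals inside the gene-rich range, and these had 1588 to 3770 symbols before thinning. Across the gene-rich cells the total and the symbol count had a Pearson correlation of 0.04 (Spearman 0.09, n = 22), and across the gene-poor cells of 0.49 (Spearman 0.37, n = 19), given as a description.

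**Figure D1:**
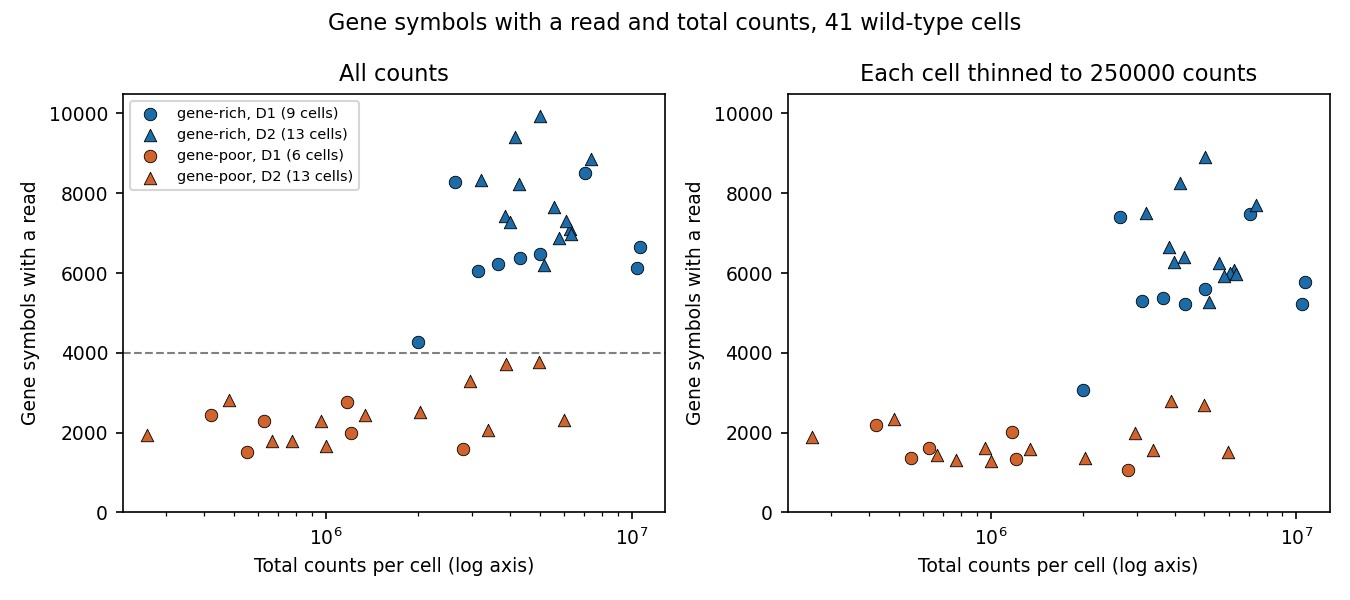
Gene symbols with a read (vertical axis) against total counts per cell (horizontal, log axis) for the 22 gene-rich (blue) and 19 gene-poor (orange) wild-type cells, with circles for D1 and triangles for D2 cells. The left panel uses all counts, with a dashed line at 4000 symbols, and the right panel each cell thinned to 250000 counts, where the gene-rich cells lie between 3071 and 8914 and the gene-poor cells between 1054 and 2791.

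In gene-poor cells many of the symbols that were read had hardly any reads. Symbols with 1 to 9 reads made up 7.95% to 37.7% of the symbols read in a gene-rich cell, with a median of 12.3%, and 25.9% to 70.6% in a gene-poor cell, with a median of 46.2%. D1 cell 10 was the gene-rich cell with 37.7%, and gene-poor D1 cell 6 the one with 70.6%. The symbols with at least 10 reads numbered 2656 to 9148 in gene-rich cells and 676 to 2757 in gene-poor cells, so that D1 cell 10 alone fell within the gene-poor range. The transcripts read in gene-poor cells were largely ones also read in the other set. Of the symbols read in a gene-rich cell, a median of 75.95% (67.6% to 81.2%) was read in at least 11 of the other gene-rich cells. Of those read in a gene-poor cell, a median of 81.8% (75.6% to 85.6%) was read in at least 11 of the 22 gene-rich cells.

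The next counts follow in part from the rule, which chose gene-poor cells for having few symbols. At least 11 of the 22 gene-rich cells had a read for 7628 symbols, and at least 10 of the 19 gene-poor cells for 981. Every gene-rich cell had a read of 736 symbols, every gene-poor cell of 49, and all 41 cells of 45, of which 8 were mitochondrial. A symbol read in at least 11 gene-rich cells was read in a median of 4 gene-poor cells, and 510 such symbols had no read in any gene-poor cell. The Spearman correlation of counts had a median of 0.57 (0.40 to 0.74) over pairs of gene-rich cells, of 0.27 (0.21 to 0.40) over pairs of gene-poor cells and of 0.31 (0.24 to 0.44) between the sets. Totals were lower in gene-poor cells too, and their part in these correlations was not tested.

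Mitochondrial transcripts took a larger share of the counts in gene-poor cells. The 13 mRNAs and 2 ribosomal RNAs of the mitochondrial genome held 0.0408% to 14.9% of the counts in gene-rich cells, with a median of 1.03% (SD 3.30, n = 22), and 0.756% to 44.8% in gene-poor cells, with a median of 7.72% (SD 11.3, n = 19). The sets overlapped, with 8 gene-rich cells below the lowest gene-poor cell and 5 gene-poor cells above D1 cell 10, the highest gene-rich cell. The highest gene-poor cells were D1 cell 6 with 44.8%, D2 cell 20 with 29.3% and D1 cell 14 with 25.5%, and the lowest were D2 cell 5 with 0.756% and D1 cell 5 with 1.52%. The gene-poor cells thus differed widely among themselves in this class. The median was 0.974% in gene-rich and 11.4% in gene-poor D1 cells, and 1.09% in gene-rich and 6.87% in gene-poor D2 cells. It was lower in gene-rich cells at each of the 7 ages with cells of both sets. Counting error was small beside these spreads: the widest 95% Wilson interval of a cell's mitochondrial or Rn18s-rs5 share spanned 0.279 percentage points. The labels name no molecular identifiers, and this interval covers counting error alone.

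Each of the 15 mitochondrial genes was lower in gene-rich than in gene-poor cells, by at least 1 on the log2 scale. Levels were given as CPM, a gene's counts scaled to an equal total in every cell,, and the difference is that of the mean log2(CPM + 1) over cells, gene-rich minus gene-poor. Among all 11059 measured symbols, 66 were that much lower in gene-rich cells, or 0.597%, and 9090 that much higher, or 82.2%. The mitochondrial ribosomal RNA Mt-rnr2 had a median of 1612 CPM (72.3 to 24780) in gene-rich cells and of 17489 CPM (1371 to 59124) in gene-poor cells, a difference of -3.27. Mt-rnr1, the smaller of the pair, had a median of 297 CPM in gene-rich and 3507 CPM in gene-poor cells, a difference of -2.61. Among the mRNAs, Mt-cytb, which encodes cytochrome b of complex III, had a median of 2548 CPM (0.260 to 35589) in gene-rich and 12635 CPM (1956 to 108444) in gene-poor cells, a difference of -3.12. Mt-co1, the catalytic subunit of cytochrome oxidase, had a median of 1796 CPM (148 to 30030) in gene-rich and 11251 CPM (648 to 100209) in gene-poor cells, a difference of -2.55. Both mRNAs were higher in gene-poor than in gene-rich cells by medians, with ranges that overlap.

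The other members ran the same way. The NADH dehydrogenase subunits of complex I differed by -2.94 (Mt-nd6), -2.91 (Mt-nd2), -2.72 (Mt-nd4), -2.62 (Mt-nd5), -2.498 (Mt-nd1), -1.75 (Mt-nd3) and -1.35 (Mt-nd4l). The remaining oxidase subunits Mt-co3 and Mt-co2 differed by -2.45 and -2.35, and the ATP synthase subunits Mt-atp6 and Mt-atp8 by -2.33 and -2.13. In the summed counts of each set, the gene-poor level was between 2.97 (Mt-nd3) and 8.34 (Mt-rnr1) times the gene-rich level. Adjacent mitochondrial genes overlap in the annotation (Mt-atp6 with Mt-atp8 and Mt-co3, Mt-nd4 with Mt-nd4l, and Mt-nd5 with Mt-nd6 on the opposite strand), so that reads in the shared bases cannot be assigned to 1 of them with certainty. The nuclear-encoded genes of the same respiratory complexes did not follow, and most went the way of most measured symbols. Of 85 measured, 60 were higher in gene-rich cells by at least 1, or 70.6% against 82.2% over all measured symbols. Lower by at least 1 was only Cox6a1, by 1.23. The list's median difference was 2.00 against 2.36 over all measured symbols. Ndufs3, a complex I subunit, was read in 22 of 22 gene-rich and 5 of 19 gene-poor cells, and the complex I assembly factor Ndufaf4 in 21 and 2. The summed counts of this list nevertheless held a median of 1.27% of a gene-rich and 2.36% of a gene-poor cell.

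**Figure D2:**
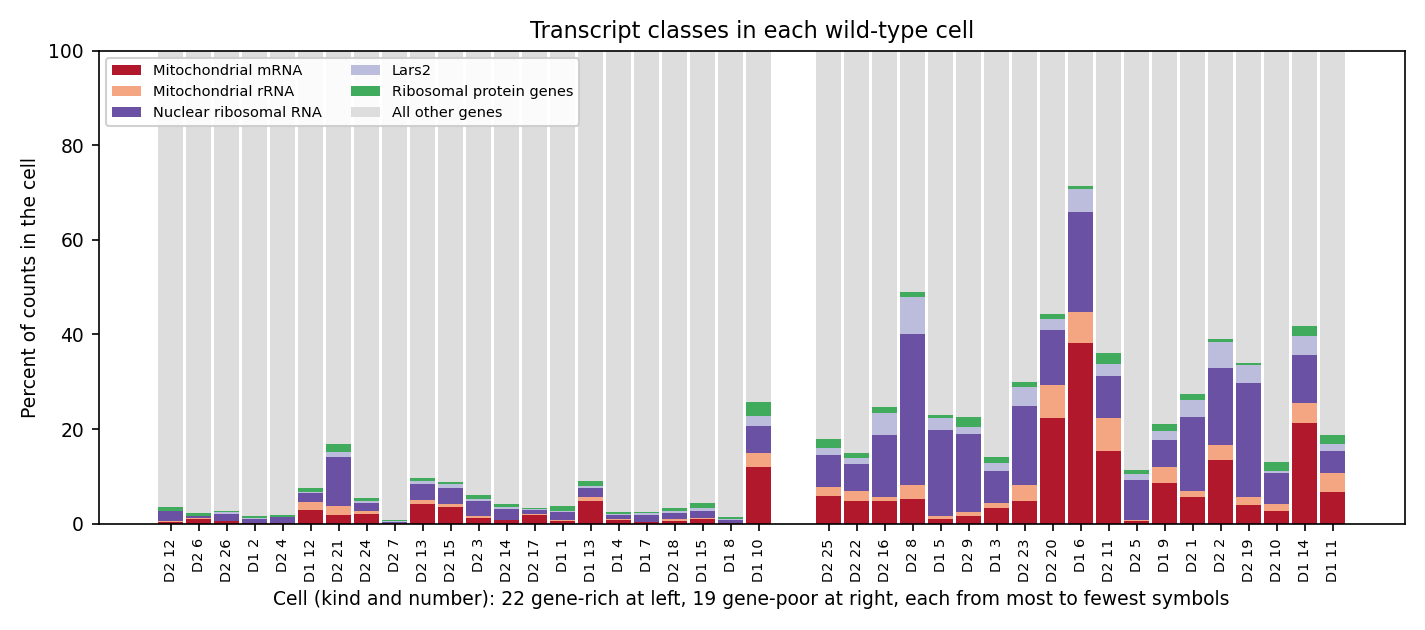
Percent of each cell's counts (vertical axis, from 0 to 100) in mitochondrial mRNA, mitochondrial rRNA, nuclear ribosomal RNA, Lars2, ribosomal protein genes and all other genes, 1 bar per wild-type cell. The 22 gene-rich cells are at left and the 19 gene-poor cells at right, each from most to fewest symbols. The coloured classes stay low in gene-rich bars other than D2 cell 21 and D1 cell 10, and mitochondrial transcripts alone reach 44.8% in gene-poor D1 cell 6.

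Rn18s-rs5, the symbol of the nuclear 18S ribosomal RNA, was the highest gene in all 19 gene-poor cells. It was the highest in 15 of 22 gene-rich cells, and in the other 7 the highest was Snhg11. It held 0.349% to 10.4% of the counts in gene-rich cells, with a median of 1.63% (SD 2.20, n = 22), and 4.75% to 31.8% in gene-poor cells, with a median of 11.6% (SD 7.28, n = 19). All gene-rich cells but D2 cell 21 (10.4%) and D1 cell 10 (5.79%) lay below the lowest gene-poor cell, D1 cell 11. The highest gene-poor cells were D2 cell 8 with 31.8%, D2 cell 19 with 24.1% and D1 cell 6 with 21.2%. The median was 1.56% in gene-rich and 8.48% in gene-poor D1 cells, and 1.67% in gene-rich and 13.04% in gene-poor D2 cells. Of the 353 other nuclear ribosomal RNA symbols, 40 had a read in any of the 41 cells, and together they held at most 0.0164% of a cell's counts. The gene lies on chromosome 17 at 39846353 to 39848827 (GRCm38, GENCODE vM21, biotype rRNA), and its exons are shared with those of AY036118 and, on the other strand, Gm42418. The labels do not say whether counting used strand, so reads of the 3 cannot be told apart.

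Lars2, which encodes the leucyl-tRNA synthetase of mitochondria, was read in all 41 cells and stood lower in gene-rich cells. Whether the reads under this symbol come from its mRNA or match ribosomal RNA was not tested. It held 0.0736% to 2.09% of the counts in gene-rich cells, with a median of 0.301% (n = 22), and 0.510% to 7.98% in gene-poor cells, with a median of 2.48% (n = 19), a difference of -3.02 in mean log2(CPM + 1). In 15 gene-rich cells Lars2 was below every gene-poor cell, and in 11 gene-poor cells it was above every gene-rich cell. It went with Rn18s-rs5 from cell to cell inside each set. The Pearson correlation of both shares was 0.70 (Spearman 0.83) over 22 gene-rich cells and 0.81 (Spearman 0.71) over 19 gene-poor cells, and 0.79 and 0.69 without the 2 cells farthest from the median Rn18s-rs5 share. Both shares come from 1 library and 1 total. The mitochondrial share went with the Rn18s-rs5 share less closely, with a Pearson correlation of 0.53 (Spearman 0.64) over gene-rich cells and 0.10 (Spearman 0.01) over gene-poor cells; without the 2 cells farthest from the median Rn18s-rs5 share these were 0.58 and 0.30. The pair of most rRNA-rich gene-poor cells, D2 cells 8 and 19, held 8.26% and 5.54% mitochondrial transcripts, close to the set's median.

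The highest genes of a cell took a larger share in gene-poor cells. The 10 highest genes of each cell held 3.41% to 24.1% of the counts in gene-rich cells, with a median of 5.49%, and 13.1% to 69.7% in gene-poor cells, with a median of 25.7%. With mitochondrial transcripts, nuclear ribosomal RNA and Lars2 set aside, a median of 97.1% of the counts remained in gene-rich cells (77.2% to 99.5%) and of 76.7% in gene-poor cells (29.2% to 89.6%). The 7 gene-poor cells with totals inside the gene-rich range held 0.756% to 29.3% mitochondrial transcripts, with a median of 6.87%, and 5.75% to 16.5% Rn18s-rs5, with a median of 10.2%. Their Lars2 share had a median of 1.55%, against 2.48% in the whole gene-poor set.

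Snhg11 went the other way. It held a median of 0.824% of the counts in gene-rich cells, with a highest value of 2.09% in D2 cell 17, and a median of 0.0149% in gene-poor cells, with a highest value of 1.12% in D1 cell 5. All 22 gene-rich cells had a read, and 17 of 19 gene-poor cells. The difference was 5.88 in mean log2(CPM + 1), 7.09 in D1 and 5.68 in D2 cells. Beside D1 cell 5, the highest gene-poor cells were D2 cell 5 with 0.290% and D2 cell 10 with 0.232%. Gene-rich D1 cells 1 and 10 were near the bottom, with 0.0937 CPM in cell 1 and 0.00285% of the counts in cell 10, so that the groups overlapped at both ends. The exons of Snhg11 overlap those of Gm25187 on the same strand. GENCODE vM21 gives Snhg11 the biotype protein-coding, so the class of long noncoding genes by biotype does not hold it. That class had a median of 0.102% of the counts in gene-rich and 0.0711% in gene-poor cells. Snhg11 was the only one of 10 listed nuclear-retained noncoding RNAs among the symbols used. The others were not analysed here.

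**Figure D3:**
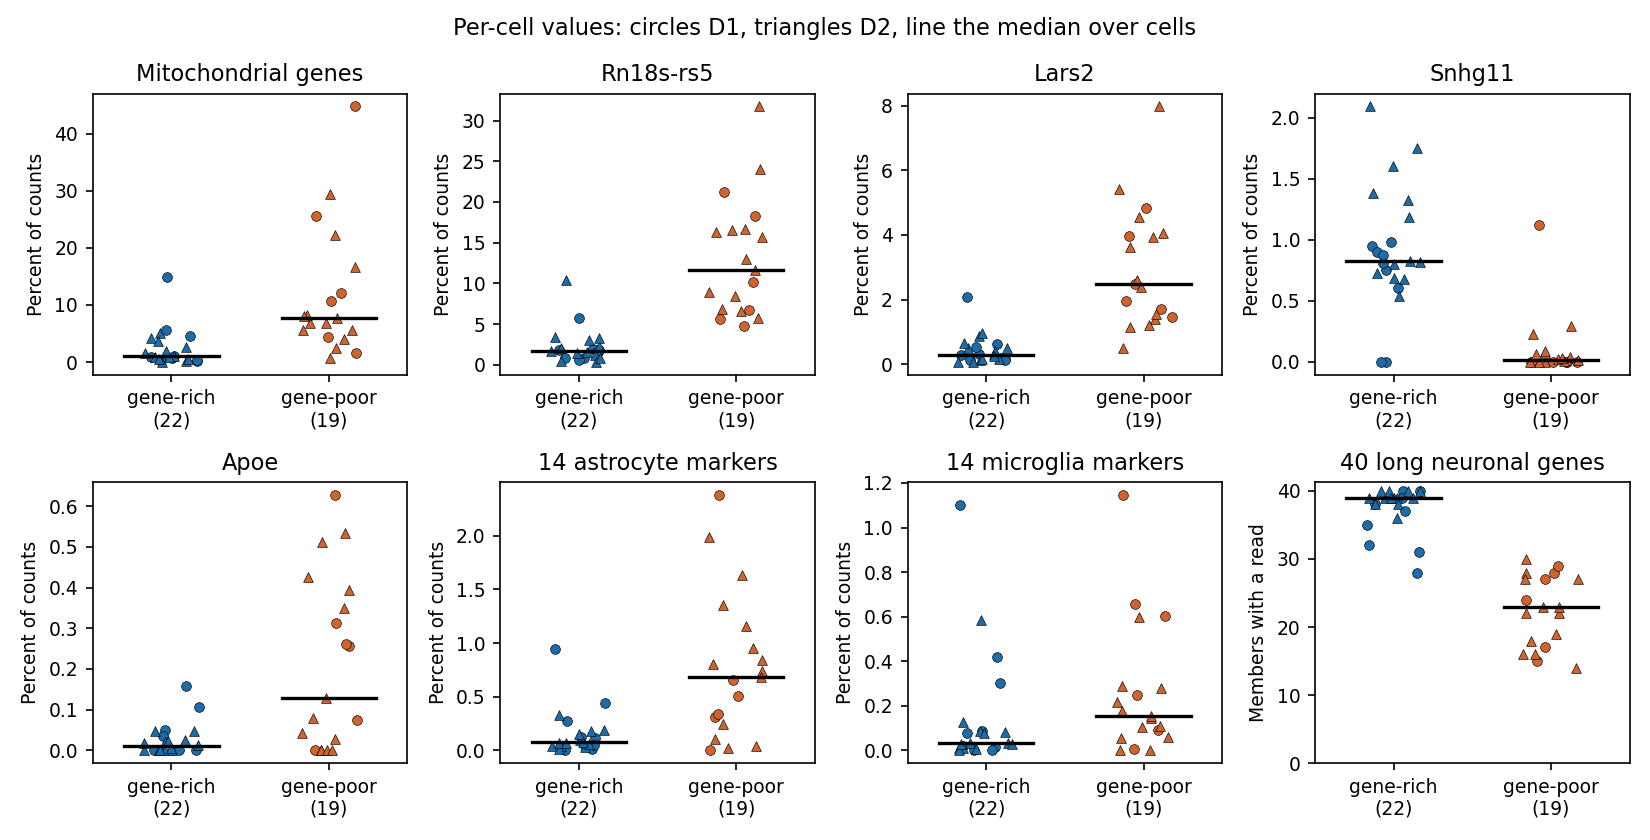
Values of each gene-rich (22, left, blue) and gene-poor (19, right, orange) wild-type cell in 8 panels: percent of counts in mitochondrial genes, Rn18s-rs5, Lars2, Snhg11, Apoe, 14 astrocyte markers and 14 microglia markers, and the number of 40 long neuronal genes with a read. Circles are D1 and triangles D2 cells, and lines are medians, which are 1.03% and 7.72% for mitochondrial genes and 39 and 23 for the long neuronal genes.

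The transcripts left in every gene-poor cell were those of abundant cytosolic and neuronal proteins. Outside the mitochondrial and ribosomal RNA genes, those read in all 19 gene-poor cells at the highest level included Lars2, Fth1, Tmsb4x, Calm2, Cpe, Aldoa, Snap25, Ckb and Gapdh. Fth1, the ferritin heavy chain that stores iron, had a median of 1445 CPM (686 to 14534) in gene-rich and 4063 CPM (1111 to 13457) in gene-poor cells, a difference of -1.31. Tmsb4x, which encodes the actin-binding thymosin beta 4, had a median of 1471 CPM (643 to 4828) in gene-rich and 2649 CPM (457 to 8197) in gene-poor cells, a difference of -0.71. Snap25, the synaptosomal protein of the vesicle fusion complex, had a median of 2380 CPM (1135 to 5755) in gene-rich and 2655 CPM (76.3 to 4813) in gene-poor cells, a difference of 0.41. The calmodulin gene Calm2 had a median of 1949 CPM in gene-rich and 3452 CPM in gene-poor cells. Its difference was nevertheless 0.31, and -0.17 in the summed counts of each set. Cpe, the carboxypeptidase of neuropeptide processing, had a median of 859 CPM in gene-rich and 2842 CPM in gene-poor cells, with a difference in mean log2 level of -0.06. Ckb, brain creatine kinase, had a median of 1205 CPM in gene-rich and 1898 CPM in gene-poor cells, yet a difference of 0.98, which was -0.85 in the summed counts of each set. The glycolytic gene Gapdh had a median of 742 CPM in gene-rich and 1701 CPM in gene-poor cells, a difference of -0.37. Aldoa, another glycolytic gene, had a median of 1355 CPM in gene-rich and 1608 CPM in gene-poor cells, yet a difference of 1.14, which was -0.44 with the authors' normalized values. In Snap25, Calm2, Cpe, Ckb and Aldoa the median level and the mean log2 level thus gave different accounts. Some were nearly absent from single gene-poor cells, with lowest levels of 1.59 CPM for Gapdh, 1.495 CPM for Cpe, 1.04 CPM for Calm2 and 0.356 CPM for Ckb and for Aldoa, whose lowest gene-rich cell had 502 CPM. The difference of Aldoa was 0.74 without gene-poor D1 cell 6 and 0.65 without gene-poor D1 cell 14. The direction differed between the kinds for Gapdh, with 0.99 in D1 and -1.10 in D2 cells, and for Cpe, with -1.49 in D1 and 0.58 in D2 cells. Exons of Gapdh and Aldoa overlap those of Iffo1 and Fam57b on the other strand.

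Lists of such genes stood lower than the whole. Of 20 cytosolic housekeeping genes, 8 were higher in gene-rich cells by at least 1, or 40% against 82.2% over all measured symbols. Lower by at least 1 were 3 (Fth1, Ftl1 and Eef1a2), or 15% against 0.597%. That background depends on the scale: in the summed counts of each set, 1447 of the 11059 measured symbols were lower by at least 1. Members of the list were not counted on that scale. The list had a median difference of 0.45 and held a median of 1.08% of a gene-rich and 2.53% of a gene-poor cell. The largest difference was 3.69, of the actin gene Actg1, with 22 of 22 gene-rich and 15 of 19 gene-poor cells read, followed by 2.87 of the tubulin gene Tubb4a. Of 10 calmodulin and small calcium-binding genes, 2 were higher by at least 1 (Ppp3r1 by 1.62 and Pcp4 by 1.23), or 20% against 82.2%. Calm3 was lower by 1.01. The list had a median of 0.37 and shares of 0.811% in gene-rich and 1.24% in gene-poor cells. Taken by kind, the list's median was 1.06 for D1 and -0.38 for D2 cells. Pcp4 was lower in gene-rich D2 cells, by 0.42. Against 2.36 over all measured symbols, both lists had small differences.

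Ribosomal protein genes were read in fewer gene-poor cells and yet held more of their counts. Of 84 genes, a median of 74.5 (55 to 80) was read in a gene-rich cell and of 46 (32 to 70) in a gene-poor cell. Of 80 measured, 53 were higher in gene-rich cells by at least 1, or 66.25% against 82.2% over all measured symbols, and Rps29 was lower by 1.03. The list's median was 1.46, below the 2.36 of all measured symbols. Rpl22l1 and Rpl10a had the largest differences, 4.72 and 4.28, with reads in 19 and 18 gene-rich and in 3 and 2 gene-poor cells. Their summed share had a median of 0.531% in gene-rich and 1.15% in gene-poor cells, above the gene-rich median in 18 of 19 gene-poor cells. In the summed counts of each set the median over the list was -0.76, the opposite sign. The list's median of log differences and its shares of the counts thus ran in opposite directions, and the cause was not tested.

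Fewer genes of long transcripts with neuronal roles were read in gene-poor than in gene-rich cells. Of 40 such genes (median merged exon length 16449 bases), gene-rich cells had a read of 28 to 40, with a median of 39, and gene-poor cells of 14 to 30, with a median of 23. The overlap was limited to D1 cell 1, which had 28 and was the lowest gene-rich cell. The gene-poor median of members read was 0.59 of the gene-rich median, beside 0.32 for all symbols. All 40 were read in at least 11 gene-rich cells and 20 in at least 10 gene-poor cells, beside 7628 and 981 of all symbols. Of the 40, 38 were higher in gene-rich cells by at least 1, or 95% against 82.2% over all measured symbols, and none lower. Their median was 3.82 against 2.36 over all measured symbols. That whole includes symbols read in few gene-rich cells. Among genes read in at least 11 gene-rich cells, the longest quartile of merged exon length had a median of 3.44. Split by level in gene-rich cells, this was 2.09 in the lowest level quartile and 4.84 in the highest. The list was not compared with genes matched for length and level. Syne1, the large nuclear envelope protein nesprin-1, had a median of 426 CPM (2.497 to 909) in gene-rich cells and was read in 4 of 19 gene-poor cells, up to 883 CPM, a difference of 6.37. Macf1, a giant linker of microtubules and actin, had a median of 373 CPM in gene-rich cells and was read in 9 gene-poor cells, up to 346 CPM, a difference of 6.25. The synaptic scaffold gene Shank2 was read in 21 of 22 gene-rich and 4 of 19 gene-poor cells, and the NMDA receptor subunit gene Grin2b in 22 and 16. At the other end Map1a, a microtubule-associated protein, and the adhesion gene Nrxn2 differed by 0.36 and -0.39, with reads in 19 and 17 gene-poor cells. In the summed counts of each set the list's median was 0.98, below the 1.87 of all measured symbols, so that its standing above the whole is not seen when reads are pooled. The list held a median of 1.06% of a gene-rich and 0.546% of a gene-poor cell.

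Detection was also set out by length. The genes used were kept for a read in gene-rich cells, so that their lower detection in gene-poor cells follows in part from that choice. Among 7140 genes read in at least 11 gene-rich cells and with a known length, gene-rich cells read a median of 77.003% of the shortest quartile of merged exon length (216 to 3166 bases) and 81.8% of the longest (7887 to 41324 bases). Gene-poor cells read 26.8% of the shortest and 25.8% of the longest. The longest minus the shortest quartile was 2.86 percentage points in the median gene-rich cell and -4.09 in the median gene-poor cell, and below 0 in 7 of 22 and 14 of 19 cells. In D1 cells taken alone, the gene-rich minus gene-poor value of this measure was -0.22, against 6.95 over both kinds, so its sign rests on the D2 cells. The level in gene-rich cells separated the genes more. In gene-poor cells, 14.1% of the lowest level quartile and 41.96% of the highest were read, and in gene-rich cells 57.8% and 95.5%. Within the highest level quartile, gene-poor cells read 47.9% of the shortest and 43.5% of the longest genes, with a median difference of 3.62 and 4.84. The length quartiles between them had 42.2% and 37.6%, so the values were not graded by length. In level quartiles 1, 2 and 3, gene-poor cells read 14.5%, 16.4% and 25.4% of the shortest genes. Of the longest genes they read 15.8%, 16.2% and 23.7%. The level itself was measured in the gene-rich cells, so that it is part of the contrast.

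**Figure D4:**
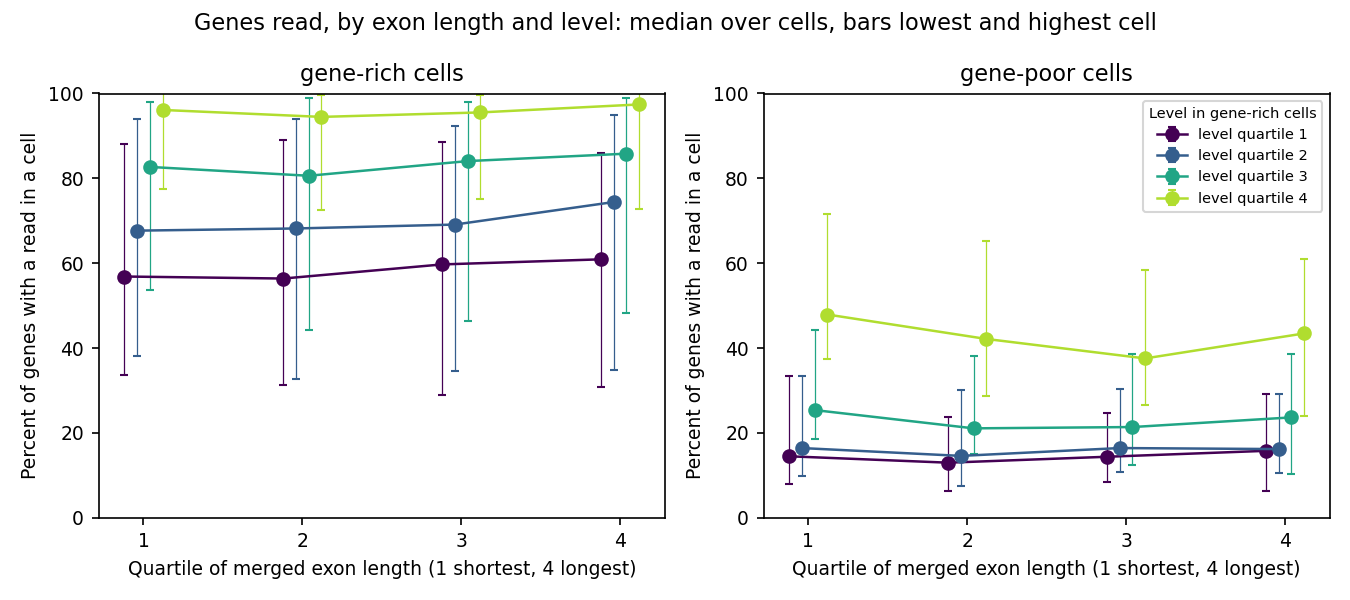
Percent of genes with a read in a cell (vertical axis) by quartile of merged exon length (horizontal axis) and by quartile of level in gene-rich cells (colours), for gene-rich cells at left and gene-poor cells at right. Points are medians over cells and bars run from the lowest to the highest cell. Lines lie apart by level more than they slope with length: in gene-poor cells the highest level quartile has 47.9%, 42.2%, 37.6% and 43.5% from the shortest to the longest genes.

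Markers of the labelled cell type were present in both sets. Of 12 markers of pyramidal neurons, gene-rich cells read 8 to 12, with a median of 11, and gene-poor cells 4 to 11, with a median of 7. The vesicular glutamate transporter gene Slc17a7 was read in 22 gene-rich and 17 gene-poor cells and the calmodulin-binding Nrgn in 22 and 19. Of the 12, 10 were higher in gene-rich cells by at least 1, or 83.3%, near the 82.2% of all measured symbols, with a median of 2.20, which was 0.43 in the summed counts of each set. The synaptic vesicle gene Sv2b, with 444 CPM (64.3 to 1455) as the gene-rich median and reads in 10 of 19 gene-poor cells up to 3833 CPM, differed by 6.37. Arpp21, an RNA-binding phosphoprotein of neurons, differed by 4.72. Of 16 pan-neuronal markers, 14 were higher in gene-rich cells by at least 1, or 87.5% against the same 82.2%, with a median of 2.82, and a median of 16 was read in gene-rich and 13 in gene-poor cells. Eno2, the neuronal enolase, and Thy1, a neuronal surface protein, differed by 4.82 and 3.70. Their shares of the counts were closer than their log levels: the pan-neuronal list held a median of 1.00% of a gene-rich and 0.775% of a gene-poor cell, and of the counts left without mitochondrial transcripts, ribosomal RNA and Lars2 1.04% and 1.18%.

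Of 18 synaptic vesicle genes 14 were higher in gene-rich cells by at least 1, or 77.8% against 82.2% over all measured symbols, with a median of 2.82. Of 15 glycolysis genes 12 were higher by at least 1, or 80%, and Aldoc lower by 1.88, with a median of 2.77; the phosphofructokinase gene Pfkp differed by 5.47 and Eno2 is described above. They held a median of 0.805% of a gene-rich and 1.46% of a gene-poor cell. Of 13 immediate early genes, which neurons induce with activity, 12 were higher by at least 1, or 92.3%, with a median of 3.26. Nr4a1, an orphan nuclear receptor, was read in 22 gene-rich and 4 gene-poor cells and differed by 6.02, Arc, a synaptic regulator, in 20 and 5, with 5.85, and Npas4 in 14 and 0. Of 11 heat shock genes 8 were higher by at least 1, or 72.7%, with a median of 1.56, led by the endoplasmic reticulum chaperone gene Hspa5 with 4.36 and Dnajb1 with 3.56. Hspa8 and Hsp90ab1, the abundant cytosolic chaperones, were read in every cell and differed by 0.51 and 0.80.

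The named genes with the largest differences were read in nearly every gene-rich cell and in 1 to 9 of the 19 gene-poor cells. This follows in part from their ranking, because the difference grows with the number of cells without a read. The 10 were Zcchc18, Ahi1, Matk, Sf3b1, Pdlim7, Ewsr1, Rsrp1, Efr3a, Pabpn1 and Hnrnph1, with differences between 8.08 and 7.36. Sf3b1, a core splicing factor, had a median of 1090 CPM (53.8 to 2627) in gene-rich cells and reads in 8 of 19 gene-poor cells, up to 1967 CPM, a difference of 7.78. Hnrnph1, a splicing regulator, had a median of 381 CPM in gene-rich cells and reads in 3 gene-poor cells, up to 3.83 CPM. Pabpn1, the nuclear poly(A)-binding protein, had a median of 200 CPM in gene-rich cells and a read in 1 gene-poor cell, at 1.54 CPM. Exons of Pabpn1, Zcchc18 and Pdlim7 overlap those of Gm20521, Gm15038 and Mir6945 on the same strand, and those of Ewsr1 overlap Rhbdd3 on the other, so these values are uncertain. Ahi1, a cilium protein, had a median of 788 CPM (21.5 to 2229) in gene-rich cells, with reads in 9 gene-poor cells, and Matk, a kinase of the brain and blood cells, of 1091 CPM (58.5 to 4336), also with reads in 9. These genes were read in 21 or 22 gene-rich cells and, in the median gene-poor cell, had no read.

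A list of splicing regulators and a list of core proteins of the small nuclear ribonucleoproteins were added after these genes were seen, so that they describe the pattern and do not stand apart from it. Of 96 measured splicing regulators, 89 were higher in gene-rich cells by at least 1, or 92.7% against 82.2% over all measured symbols, with a median of 3.83. A gene-rich cell read 51 to 92 of the 103 genes and a gene-poor cell 15 to 44. The sets did not overlap, which follows in part from the rule, as all symbols read did not overlap either. The gene-poor median of members read was 0.34 of the gene-rich median, beside 0.32 for all symbols. The list held 0.965% to 3.02% of the counts in gene-rich cells, with a median of 2.13%, and 0.0707% to 1.56% in gene-poor cells, with a median of 0.682%. Gene-rich D1 cell 10 had both the fewest of these genes and the lowest share of its set. Of 22 core proteins, 17 were higher by at least 1, or 77.3% against 82.2% over all measured symbols, with a median of 1.93. Snrpa1 and Lsm7 differed by 4.80 and 4.43, and the share of counts had medians of 0.222% in gene-rich and 0.316% in gene-poor cells. In the summed counts of each set the splicing list's median was 1.82, beside 1.87 over all measured symbols.

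Astrocyte transcripts were among the few lower in gene-rich cells. In samples of this kind, more astrocyte material and less RNA of the neuron beside it cannot be told apart. The 14 markers held 0.000861% to 0.942% of the counts in gene-rich cells, with a median of 0.0751% (SD 0.209, n = 22), and 0.00178% to 2.38% in gene-poor cells, with a median of 0.680% (SD 0.676, n = 19). The sets overlapped: 6 gene-poor cells were above every gene-rich cell and 16 above the gene-rich median. Of the counts left without mitochondrial transcripts, ribosomal RNA and Lars2, the markers held medians of 0.0799% in gene-rich and 1.09% in gene-poor cells. Of 13 measured, 10 were below 0 and 4 lower by at least 1, or 30.8% against 0.597% over all measured symbols. Their median was -0.76, which was -0.41 without gene-poor D2 cell 8 and -2.49 in the summed counts of each set. In those summed counts 1447 of all 11059 measured symbols were lower by at least 1, and members of the list were not counted there. Ndrg2 was higher by 1.21. Apoe, a lipid carrier that astrocytes secrete, was read in 16 of 22 gene-rich cells with a median of 98.2 CPM and up to 1591 CPM, and in 18 of 19 gene-poor cells with a median of 1276 CPM and up to 6278 CPM, a difference of -3.67. Glul, the glutamine synthetase of astrocytes, had a median of 49.0 CPM in gene-rich and 238 CPM in gene-poor cells, a difference of -1.99, which was -0.12 in D1 and -2.87 in D2 cells. Aldoc, the aldolase of astrocytes in the brain, differed by -1.88 and S100b, a calcium-binding protein, by -1.31. The defining marker Gfap had no read in any gene-rich cell and reads in 2 gene-poor cells, and the water channel gene Aqp4 reads in 2 and 4, so that both were at 0 in most cells of each set.

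Beside Apoe, Glul, Aldoc and Lars2, the nuclear-encoded genes named as lower in gene-rich cells included Hopx, Bcan, Plpp3, Ptgds and Drd5. The exons of Hopx overlap Hopxos and those of Drd5 overlap Gm26560, each on the other strand; Glul overlaps Mir8114 and Teddm2. Hopx, a small homeodomain protein, was read in 8 gene-rich cells, up to 86.4 CPM, and 10 gene-poor cells, up to 3908 CPM. Bcan, the matrix proteoglycan brevican, was read in 5 gene-rich and 8 gene-poor cells, up to 132 and 2244 CPM, and Plpp3, a lipid phosphatase, in 5 and 7, up to 118 and 1336 CPM. Ptgds, a prostaglandin synthase, was read in 14 and 13 cells, up to 313 and 3751 CPM. Drd5, the D5 dopamine receptor, was read in 14 gene-rich and 13 gene-poor cells, with medians of 0.246 and 3.34 CPM. The medians of Bcan and Plpp3 were 0 in both sets, that of Hopx was 0 in gene-rich and 3.83 CPM in gene-poor cells, and that of Ptgds 0.282 and 1.595 CPM, so that high values in some gene-poor cells stood behind these differences. The gene-poor medians of Hopx, Ptgds and Drd5 lie inside the 0.501 to 11.5 CPM that 3 counts make in a gene-poor cell.

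Astrocyte share and mitochondrial share moved together in gene-rich cells, with a Pearson correlation of 0.87 (Spearman 0.69, n = 22), and 0.63 without the 2 cells farthest from the median mitochondrial share. Over gene-poor cells it was 0.12 (Spearman 0.37, n = 19), and 0.41 without the 2 farthest. Gene-poor D1 cell 5 was low in both classes, with 1.52% mitochondrial transcripts, 0.00178% astrocyte transcripts and no Apoe read, beside 18.3% Rn18s-rs5. It was also the gene-poor cell with 1.12% Snhg11. The part of astrocyte material in the mitochondrial share was not tested.

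Microglia markers, read in fewer gene-poor cells, held more of their counts. Of 14 genes, gene-rich cells read 1 to 14, with a median of 6, and gene-poor cells 1 to 7, with a median of 4. Their share had a median of 0.0328% in gene-rich and 0.155% in gene-poor cells, with highest values of 1.10% in gene-rich D1 cell 10 and 1.15% in gene-poor D1 cell 6. Of 13 measured, 7 were higher in gene-rich cells by at least 1, or 53.8% against 82.2% over all measured symbols, and none lower. The list's median was 1.25, below the 2.36 of all measured symbols, and was -0.82 in the summed counts of each set. Trem2, a receptor of microglia, was read in 8 gene-rich and 0 gene-poor cells and differed by 2.17. At a floor of 3 counts, the summed gene-poor counts allow Trem2 up to 0.0844 CPM, and single gene-poor cells up to 0.501 to 11.5 CPM. These floors cover counting alone. Tyrobp, the adaptor of that receptor, differed by -0.75, with 13 and 11 cells read. Without gene-rich D1 cell 10 the list's median was 0.91.

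Oligodendrocyte transcripts were low in most cells and high in some, and interneuron, vessel and blood transcripts were sparse in both sets. Of 6 measured oligodendrocyte markers, 2 were higher in gene-rich cells by at least 1, or 33.3% against 82.2% over all measured symbols. These were Cnp, with 12 gene-rich and 0 gene-poor cells read, and Olig1, with 7 and 2. The list's median was 0.42. The myelin gene Mbp was read in 20 gene-rich and 13 gene-poor cells. The list's share had a median of 0.0306% in gene-rich and 0.0619% in gene-poor cells, with highest values of 1.37% in gene-rich D1 cell 10 and 1.11% in gene-poor D2 cell 23. Of 5 precursor markers, Sox10 was read in 4 gene-rich cells and 1 gene-poor cell, Cspg4 in 3 and 1, Gpr17 in 1 and 0, C1ql1 in 1 and 1 and Pdgfra in 0 and 1. Of 6 measured interneuron markers, Gad1, an enzyme of GABA synthesis, was lower by 1.13 (-0.72 without gene-poor D2 cell 25), higher by 0.44 in D1 cells, and read in 8 gene-rich and 7 gene-poor cells; Lhx6 was read in 1 and 4. The list's median was -0.32 and its share had medians of 0.0011% in gene-rich and 0.0019% in gene-poor cells. Of 12 vessel markers 3 were measured: Bsg, which neurons also express, was higher by 6.00, and Acta2, an actin of smooth muscle, differed by -0.92, with 5 gene-rich and 13 gene-poor cells read. The haemoglobin genes Hbb-bs, Hba-a1, Hba-a2 and Hbb-bt were read in 8, 6, 5 and 5 gene-rich and 3, 1, 0 and 0 gene-poor cells, and Alas2, an enzyme of haem synthesis, in 2 and 1.

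**Figure D5:**
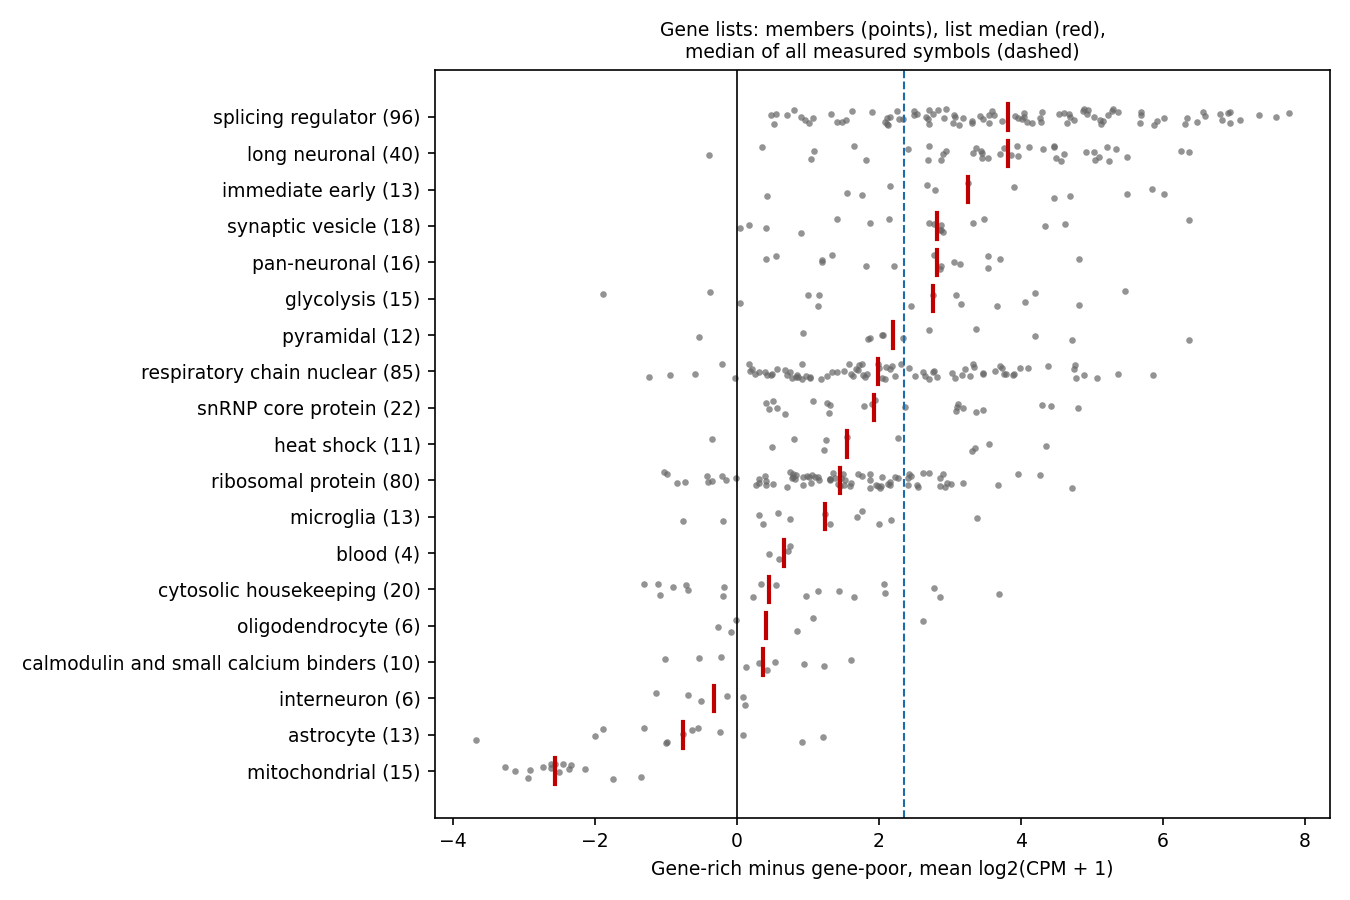
Gene-rich minus gene-poor difference in mean log2(CPM + 1) (horizontal axis) of the measured members (points) of the gene lists with at least 4 measured members (rows, with the number measured), with the list median in red, a solid line at 0 and a dashed line at 2.36, the median over all 11059 measured symbols. The mitochondrial genes (median -2.55) and the astrocyte markers (-0.76) stand lowest, and the splicing regulators (3.83) and long neuronal genes (3.82) highest; in summed counts the last 2 do not stand above the median of all symbols.

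Few symbols were read in gene-poor cells alone. Of the 12005 symbols with a read in at least 1 gene-poor cell, 149 were read in at least 2 gene-poor cells and no gene-rich cell. Of these, 3 symbols, chosen after their values were seen, were read in 5 or more gene-poor cells. Erbb4, a receptor gene of interneurons, was read in 6 gene-poor cells at up to 2.36 CPM, Abca8a, a transporter gene, in 5 at up to 2.07 CPM, and Col13a1, a membrane collagen gene, in 5 at up to 276 CPM. The highest values of Erbb4 and Abca8a lie inside the 0.501 to 11.5 CPM that 3 counts make in a gene-poor cell.

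Cell kinds and ages gave the same directions for the main classes. At the 7 ages with cells of both sets, the mitochondrial, nuclear ribosomal RNA, Lars2 and 10 highest gene shares were lower in gene-rich cells at 7, and Snhg11 and the number of long neuronal genes read were higher at 7. The astrocyte share was lower in gene-rich cells at 6 ages, and the Apoe and microglia shares at 5. The ages held 1 to 8 gene-rich and 1 to 6 gene-poor cells each. The sets were unevenly spread over them, with 8 gene-rich and 2 gene-poor cells at 29 days and 4 and 6 at 30 days.

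The 1 knockout cell under the rule, D2 cell 5, had 2904 symbols with 9176589 counts, more counts than any gene-poor wild-type cell. It held 8.17% mitochondrial transcripts, 11.9% Rn18s-rs5, 0.666% astrocyte transcripts and 28 of the 40 long neuronal genes, all inside the gene-poor wild-type range, with 0.000229% Snhg11. Among the 12 other knockout cells, D2 cell 7 combined 6194 symbols with 19.95% Rn18s-rs5 and 16.6% mitochondrial transcripts, above every gene-rich wild-type cell in both. The D1 cell of the knockout labelled as failing quality control had 995 symbols and 59.5% Rn18s-rs5.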

How the data were processed

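The values used are the authors' deposited read counts, whole numbers for 22800 symbols with a column for each cell. The submitters' processing notes name Trimmomatic, STAR, featureCounts and GRCm38, without versions or a strand setting. A table of normalized signal for 14067 symbols, deposited by the authors, was found to equal the counts of a cell times a factor of that cell. Each of the 3 tables held 2 columns that match no sample label and were not used.

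Library size was the sum over genes. CPM were computed from it, and the difference per gene is that of mean log2(CPM + 1) over cells (pseudocount 1 CPM), gene-rich minus gene-poor; it grows with the number of cells without a read and understates differences of genes with few reads. Measured symbols had a mean CPM of at least 1 over the 41 cells and a read in at least 10% of them. No p-value was computed, because the sets were chosen on the same counts and the animals are not named. A level of 0 in a cell allows up to 0.281 to 1.50 CPM in gene-rich and 0.501 to 11.5 CPM in gene-poor cells (3 counts of the total). This floor covers counting alone.

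Members and gene lists were chosen with earlier results of these data known, and 2 lists (splicing regulators and small nuclear ribonucleoprotein core proteins) after the values here. Named are, among symbols whose mean reaches 10 CPM in a set and that 1 in 3 of its cells or more read, the 10 read in most gene-poor cells, the 10 largest differences per direction that keep their direction in D1 and D2 cells (passing over mitochondrial, ribosomal RNA, predicted and pseudogene symbols), the highest gene of each gene-poor cell, the 2 largest differences of each list and every member of lists of at most 6 genes and of the mitochondrial genes. Other list members are named as examples, and some genes that meet the rule are not reported here. Exon lengths and overlaps came from GENCODE vM21, an annotation of GRCm38.

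Alternatives were other thresholds, D1 or D2 cells alone, thinning, other pseudocounts and filters, TMM factors, the authors' normalized values, leaving out each cell, and, added after seeing the data, the summed counts of each set and leaving out the cells nearest to the threshold. Python 3.11.15 with numpy 2.4.6, pandas 2.3.3, scipy 1.17.1 and matplotlib 3.10.9 was used, and edgeR 4.0.16 in R 4.3.3 for TMM factors. In counts simulated for the gene-rich and gene-poor sets, 200 of the 22800 genes were raised or lowered by 2 on the log2 scale. The direction was recovered for 100% and the estimates averaged 1.96 and -1.98. The changed genes were drawn from those of higher mean level, and both sets otherwise shared a mean profile. The recovery therefore does not cover genes of low level or the many genes without a read in gene-poor cells.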

Additional observations from a re-analysis of the deposited data

Results flagged for a closer look

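Among 30 pairs of a measure and a set of 4 to 10 cells, 12 had a cell far from the others. Chance flags about 5% of independent groups, but these measures are shares of the same libraries and are not independent. Of the 12, 9 concern gene-rich D1 cell 10, the highest of the 9 gene-rich D1 cells and the one nearest to the threshold. It held 14.9% mitochondrial transcripts (next 5.64%), 5.79% nuclear ribosomal RNA (next 1.89%), 2.09% Lars2 (next 0.640%), 24.1% in the 10 highest genes (next 8.88%) and 2.91% ribosomal protein genes (next 1.08%). Its marker shares were 0.942% astrocyte (next 0.446%), 1.10% microglia (next 0.417%), 1.37% oligodendrocyte (next 0.0722%) and 0.0490% interneuron (next 0.0122%).

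Among the 6 gene-poor D1 cells, cell 5 held 1.12% Snhg11 (next 0.000946%) and 0.0189% interneuron transcripts (next 0.00335%), and cell 9 held 2.38% astrocyte transcripts (next 0.658%).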

How the results depend on the processing

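The mitochondrial, ribosomal RNA and 10 highest gene shares were lower in gene-rich cells under each alternative for which they were computed. Other pseudocounts and filters, TMM factors, the authors' normalized values and the summed counts concern levels per gene, and the shares were not computed there. Leaving out each cell in turn gave gene-rich minus gene-poor values of -6.87 to -6.26, -10.7 to -9.29 and -20.9 to -19.3 percentage points for these shares, 6.33 to 7.56 for length, 8986 to 9205 symbols higher, 55 to 77 lower and a median of 2.24 to 2.36. The medians of the lists were then -0.98 to -0.41 (astrocyte), 0.91 to 1.37 (microglia), 3.58 to 4.06 (long neuronal), 2.06 to 2.47 (pyramidal), 1.31 to 1.61 (ribosomal protein) and 3.59 to 3.99 (splicing). Length gave -0.22 in D1 cells. The number lower in gene-rich cells was 229 in D1 cells, 122 in D2 cells, 102 with TMM factors, 202 with the authors' normalized values and 1447 in the summed counts, and the number higher was 5983 at a pseudocount of 10 CPM. At pseudocounts of 0.1 and 10 CPM the median over symbols was 3.74 and 1.10, long neuronal 5.13 and 2.30, splicing 5.59 and 2.04, and pyramidal 3.33 at 0.1 CPM. Without a filter the median over symbols was 1.38. In the summed counts the medians were 1.87 (all), 0.98 (long neuronal), 0.43 (pyramidal), 1.82 (splicing), -0.82 (microglia), -0.76 (ribosomal protein) and -2.49 (astrocyte, and -1.44 with the authors' values). Of 126 named genes, 18 had another sign under at least 1 setting, 15 of them with a difference under 1 as reported. The other 3 were Aldoa (-0.44 with the authors' values), Gad1 (0.22 at a threshold of 3000 symbols, 0.44 in D1 cells) and Pcp4 (-0.42 in D2 cells, -1.29 in summed counts). The cause was not tested, beyond that a pseudocount sets how far a cell without a read stands from the rest. TMM factors had a median of 1.22 in gene-rich and 0.79 in gene-poor cells. No paired analysis was possible because the labels give the sets no shared replicate numbers and tie no cells to an animal; the values at each shared age stand in the report.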
